A study of Homo sapiens with 156 samples.

Results

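LYZ, CD14, S100A8, S100A9, S100A12, FCN1, VCAN, ITGAM, FGR and MNDA, 10 genes that are abundant in mature monocytes, were followed through 156 RNA-seq libraries of 3 acute myeloid leukemia cell lines. They were chosen by name as genes of monocyte maturation and are 10 of 59939 genes in the deposited tables; all 10 were found. MV411, THP1 and NOMO1 are established lines that carry fusions of KMT2A, with AFF1 in MV411 and with MLLT3 in THP1 and NOMO1. The study asked how transcripts change when DNMT1, the methyltransferase that keeps DNA methylation in place as cells divide, is inhibited over a range of doses and days.

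The groups were the same in each line, with 2 libraries per group. GSK032 (GSK3685032, a DNMT1 inhibitor) and DAC (decitabine, a nucleoside that is built into DNA and binds DNMT1 there for good) were each given at 3.2, 16, 80, 400, 2000 and 10000 nM for 4 days, and at 400 nM also for 1, 2 and 6 days. GSK862 (GSK3484862, a further DNMT1 inhibitor) was given at 1000 nM and GSK477 (GSK3510477, known as an inactive control compound) at 10000 nM, each for 2 and 4 days. The solvent DMSO was sampled on days 1, 2, 4 and 6. The labels do not say whether replicate libraries stem from separate cultures, and p-values therefore speak only of how far these libraries differ, which may be technical.

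Monocytes arise in bone marrow from progenitors through a program led by PU.1 and C/EBP factors, and switch on lysozyme, pattern receptors, calcium-binding alarmins and adhesion receptors as they mature. Leukemias with KMT2A fusions are often held at a monoblast-like stage, where parts of this program are already on. The 10 genes belong to this program, and their levels are given gene by gene. A position of the cells along the path from progenitor to monocyte was not tested. LYZ encodes lysozyme, which cuts bacterial cell walls. FCN1 encodes M-ficolin, a lectin that binds sugars on microbes. S100A8 and S100A9 encode the subunits of calprotectin, and S100A12 a related calcium-binding alarmin. CD14 encodes the co-receptor that hands lipopolysaccharide to TLR4. ITGAM encodes the αM integrin chain of the CR3 receptor. FGR encodes a Src-family kinase of myeloid cells. MNDA encodes a nuclear protein of the HIN-200 family. VCAN encodes versican, a large matrix proteoglycan.

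The stretches before the start of 5 genes that changed in different lines, and of S100A8 as the partner of S100A9, are shown because DNA methylation acts on cytosines of CG pairs. RefSeq (GRCh38.p14) gave entries for 9 of the 10 genes, and LYZ had no entry. Each line holds the 250 bases before a RefSeq start, written 5′ to 3′ on the gene's strand in lower case, with CG pairs in capitals. The minus strand is given for S100A8, S100A12, CD14 and FGR, and the plus strand for S100A9 and MNDA.
S100A8 (chr1:153391074-153391323): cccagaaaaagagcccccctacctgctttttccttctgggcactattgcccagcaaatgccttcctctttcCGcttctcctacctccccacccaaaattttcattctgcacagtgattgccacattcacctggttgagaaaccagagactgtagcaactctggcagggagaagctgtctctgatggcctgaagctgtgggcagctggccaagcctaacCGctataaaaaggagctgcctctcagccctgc
S100A9 (chr1:153357604-153357853): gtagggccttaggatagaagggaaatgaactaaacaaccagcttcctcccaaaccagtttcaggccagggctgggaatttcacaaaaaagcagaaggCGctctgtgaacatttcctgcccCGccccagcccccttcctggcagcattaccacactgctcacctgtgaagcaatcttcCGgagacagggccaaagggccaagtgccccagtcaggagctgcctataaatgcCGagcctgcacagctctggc
S100A12 (chr1:153375622-153375871): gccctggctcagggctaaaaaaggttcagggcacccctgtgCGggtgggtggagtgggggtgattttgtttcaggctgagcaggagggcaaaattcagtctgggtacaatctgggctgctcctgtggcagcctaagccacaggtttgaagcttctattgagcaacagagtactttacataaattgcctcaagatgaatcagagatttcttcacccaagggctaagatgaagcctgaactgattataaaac
CD14 (chr5:140633176-140633425): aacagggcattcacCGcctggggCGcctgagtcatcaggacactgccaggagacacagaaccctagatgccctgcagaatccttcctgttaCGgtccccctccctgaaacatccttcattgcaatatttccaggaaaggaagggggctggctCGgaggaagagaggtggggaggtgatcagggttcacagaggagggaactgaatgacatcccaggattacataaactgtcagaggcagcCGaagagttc
FGR (chr1:27635186-27635435): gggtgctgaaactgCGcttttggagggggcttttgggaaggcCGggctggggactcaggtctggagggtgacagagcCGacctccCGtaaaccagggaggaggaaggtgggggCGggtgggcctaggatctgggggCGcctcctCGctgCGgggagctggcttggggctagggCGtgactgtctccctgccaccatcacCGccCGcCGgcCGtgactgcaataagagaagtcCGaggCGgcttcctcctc
MNDA (chr1:158831101-158831350): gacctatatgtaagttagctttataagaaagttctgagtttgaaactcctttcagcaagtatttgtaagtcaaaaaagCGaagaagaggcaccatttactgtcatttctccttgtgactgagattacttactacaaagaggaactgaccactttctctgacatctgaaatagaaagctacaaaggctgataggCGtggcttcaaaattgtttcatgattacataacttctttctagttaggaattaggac
These windows hold few CG pairs: S100A12 has 1, S100A8 and MNDA have 2 each, S100A9 has 4 and CD14 has 5, against a median of 11 (quartiles 3 and 23) over 35116 promoter windows of the same length. FGR differs from them with 15 CG pairs, and 4 before its other listed start. Of the genes not printed, FCN1 and ITGAM have 2 each and VCAN has 12. Short motifs were searched on both strands, with positions counted from 1 at the 5′ end. S100A8 has 3 listed starts, and the window shown is the one whose TATAAA lies where that of S100A9 does. TATAAA, the TATA box, lies at base 222 in S100A8 and in S100A9, at base 243 in S100A12 and on the other strand at base 20 in MNDA, and 10.7% of all windows hold it. GAGGAA, the core bound by PU.1, is present in the windows of CD14, S100A8, S100A9, FCN1, ITGAM, FGR and MNDA, and in 23.6% of all windows. TTNNGNAA, of the C/EBP type, is present in 33.2% of all windows, TGANTCA, of the AP-1 type, in 6.6%, and GAAANNGAA, of the IRF type, in 6.9%. The AP-1 type motif lies in the CD14 and S100A12 windows and the IRF type in that of MNDA. A match is a description of letters, not of binding. No methylation was measured in these libraries.

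The values are FPKM, fragments per length of transcript scaled to the library's mapped fragments. A depth of 38.3 to 84.3 M (mega) fragments per MV411 library, of 33.4 to 89.5 M per THP1 library and of 49.3 to 129 M per NOMO1 library was estimated from the steps between low values, so that 1 fragment of S100A9 was worth 0.0135 to 0.0519 FPKM. PTPRC, CD33, SPI1 and KMT2A, listed as markers of the lines' identity, reached a median of at least 1 FPKM in each line. One library stands apart. In MV411 cells given GSK862 for 2 days, the second library had 60.3 FPKM of S100A8, 142 of S100A9, 6.94 of S100A12 and 1.22 of FCN1, against 3.96, 7.51, 0.051 and 0.0661 in its partner. Genes of high level in NOMO1 and under 1 FPKM in MV411 (ADGRL2, CA2, CLC, DEFA4 and SPP1, chosen after their values were seen) stood there at a median of 1.34% of their NOMO1 level, against 0.616% in the next MV411 library and a median of 0.219% over MV411 libraries. S100A8, S100A9, S100A12 and FCN1 stood at 1.49%, 1.53%, 3.12% and 1.71% of their NOMO1 median in it. Second libraries of MV411 on the early days had smaller gaps of the same kind: S100A9 stood at 27.2 FPKM in the second library and 5.93 in the first with DMSO on day 1, at 34.0 and 7.34 with GSK032 on day 1 and at 21.6 and 5.24 with GSK477 on day 2. In THP1, the highest library by such genes (CLC, DEFA4, MT1H, PRG2 and RETN) was the first with GSK477 on day 2, at 0.686%, against a median of 0.170%. Whether these libraries hold RNA of another line was not tested. Reported calls that change without the GSK862 library are given with and without it, and leaving out each of the 3 other MV411 libraries changed, in the comparisons with DMSO that use them, only the calls of FGR and MNDA between DMSO days.

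In solvent alone the lines held the 10 genes at different levels, and the genes did not all rank the lines alike. NOMO1 had the highest levels of 9 of the 10 genes by DMSO median, with S100A9 at 9011 FPKM (8179.8 to 9682 over 8 libraries), LYZ at 4421 (3714 to 5604) and S100A8 at 3936 (3514 to 4220.3). CD14 did not follow them, with a median of 1.66 FPKM in NOMO1 (1.11 to 3.23) and of 2.10 in THP1 (1.84 to 2.49). THP1 stood between the other lines for S100A9 at 124 FPKM (96.6 to 166), MNDA at 86.2 (52.2 to 107) and ITGAM at 8.03 (6.37 to 12.0). It had the lowest LYZ of the lines, at 201 FPKM (142 to 299), and the lowest FGR, at 2.69 (2.34 to 4.00). MV411 had high LYZ, at 1023 FPKM (366 to 1727), beside low ITGAM (1.162), MNDA (2.62), S100A8 (2.74), S100A9 (6.24) and FGR (6.73). CD14, S100A12, VCAN and FCN1 were under 1 FPKM in each MV411 DMSO library. FCN1 was high in NOMO1 only, at 64.0 FPKM (54.5 to 78.5), against 0.123 in THP1 and 0.0698 in MV411. The tables may have been normalized apart, so levels are set across lines as a description with no test. With culture time in solvent, LYZ of MV411 fell to 366 and 409 FPKM on day 6, against 1319.7 and 1727 on day 1, a log2 difference of -1.96 ± 0.17 (standard error, SE; adjusted p = 1.24e-09). FGR was the other of 2 members called of 8 tested, at -1.01, where 2.35% of all genes were called, and FGR missed the fold threshold without the second day 1 library (-0.92) and after either rescaling (-0.90 and -0.93), while MNDA was called (-1.01) without that library.

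**Figure D1:**
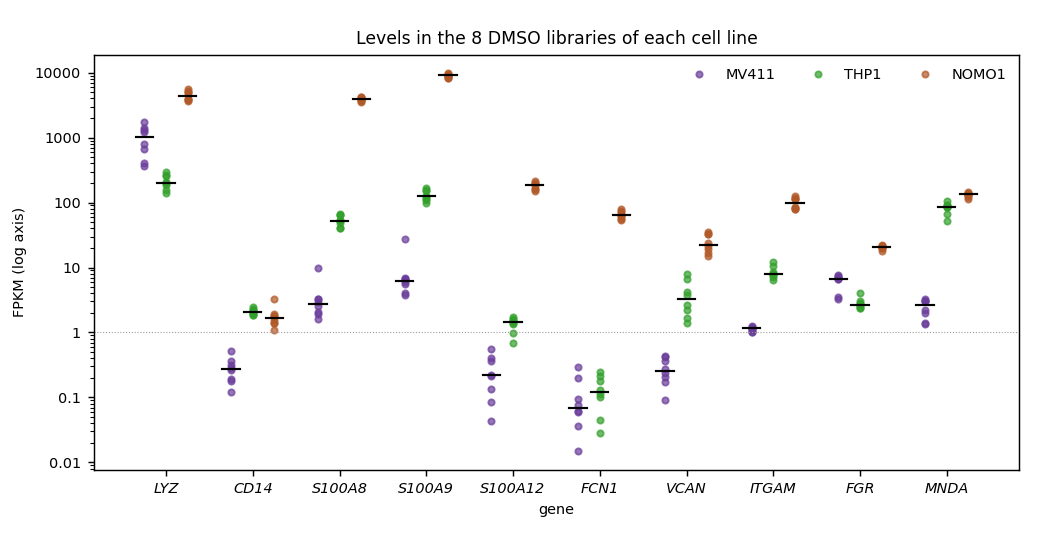
Each point is 1 DMSO library (8 per line, days 1 to 6), with the FPKM of the 10 genes on a log axis and a black bar at the median of each line. S100A9, S100A8 and LYZ of NOMO1 have no library under 3514 FPKM, while CD14 lies between 1.11 and 3.23 FPKM in NOMO1 and between 0.12 and 0.513 FPKM in MV411.

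At 400 nM and day 4, where the dose series and the time series meet, the members called differed in part between lines and were shared in part. A call in some lines or compounds and not in others is not a test of a difference, and the direct tests follow below. MV411 raised LYZ, ITGAM, FGR and MNDA with both compounds. THP1 raised CD14 and S100A9 with GSK032, and with DAC CD14, S100A8, S100A9, S100A12, VCAN and ITGAM. NOMO1 raised CD14 and FGR with both, S100A12 and FCN1 with GSK032 alone, and lowered VCAN with DAC. A gene was called where limma's moderated test on log2(FPKM + 0.5), adjusted by Benjamini and Hochberg over all genes tested in the line, gave p under 0.05 with a log2 fold change of at least 1. Fold changes on this scale understate those of low genes. With 2 libraries per group, libraries can fail to overlap without any change. Overlap is therefore given as a description, and its share over all genes was not counted. CD14 and FCN1 of MV411 and FCN1 of THP1 did not reach 1 FPKM in 2 libraries and were not tested, so the tests cover 8 members of MV411, 9 of THP1 and all 10 of NOMO1. A member that passed only through treated libraries, such as VCAN in MV411, had to be high there. In bulk RNA, a larger share of cells that express a gene and more RNA per cell cannot be told apart.

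With GSK032, 4 of 8 tested members rose in MV411, where 6.55% of 22007 genes rose and 2.76% fell. In THP1, 2 of 9 rose, beside 1.94% of 23226 genes higher and 0.336% lower. In NOMO1, 4 of 10 rose, beside 2.55% of 20763 genes higher and 0.376% lower. With DAC, 4 of 8 rose in MV411 (6.86% of all genes higher and 3.34% lower) and 6 of 9 in THP1 (6.23% and 1.93%). In NOMO1, 2 of 10 rose and 1 fell, beside 13.2% of all genes higher and 5.94% lower, a share near that background. The median log2 fold change of the tested members with GSK032 was 1.32 for MV411, 0.56 for THP1 and 0.73 for NOMO1. With DAC it was 1.21 for MV411, 2.29 for THP1 and -0.15 for NOMO1. The median over all tested genes was 0 in these 6 comparisons except THP1 with DAC, where it was -0.03. Scaling all libraries of a line to an equal sum moved the median of all genes to 0.25 with GSK032 in MV411 and to -0.34 with DAC in THP1, and scaling by median ratios moved it to 0.13 with GSK032 and 0.10 with DAC in MV411 and to 0.12 with DAC in NOMO1, so changes are relative to the authors' scale. GSK032 and DAC share their DMSO libraries within a line.

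**Figure D2:**
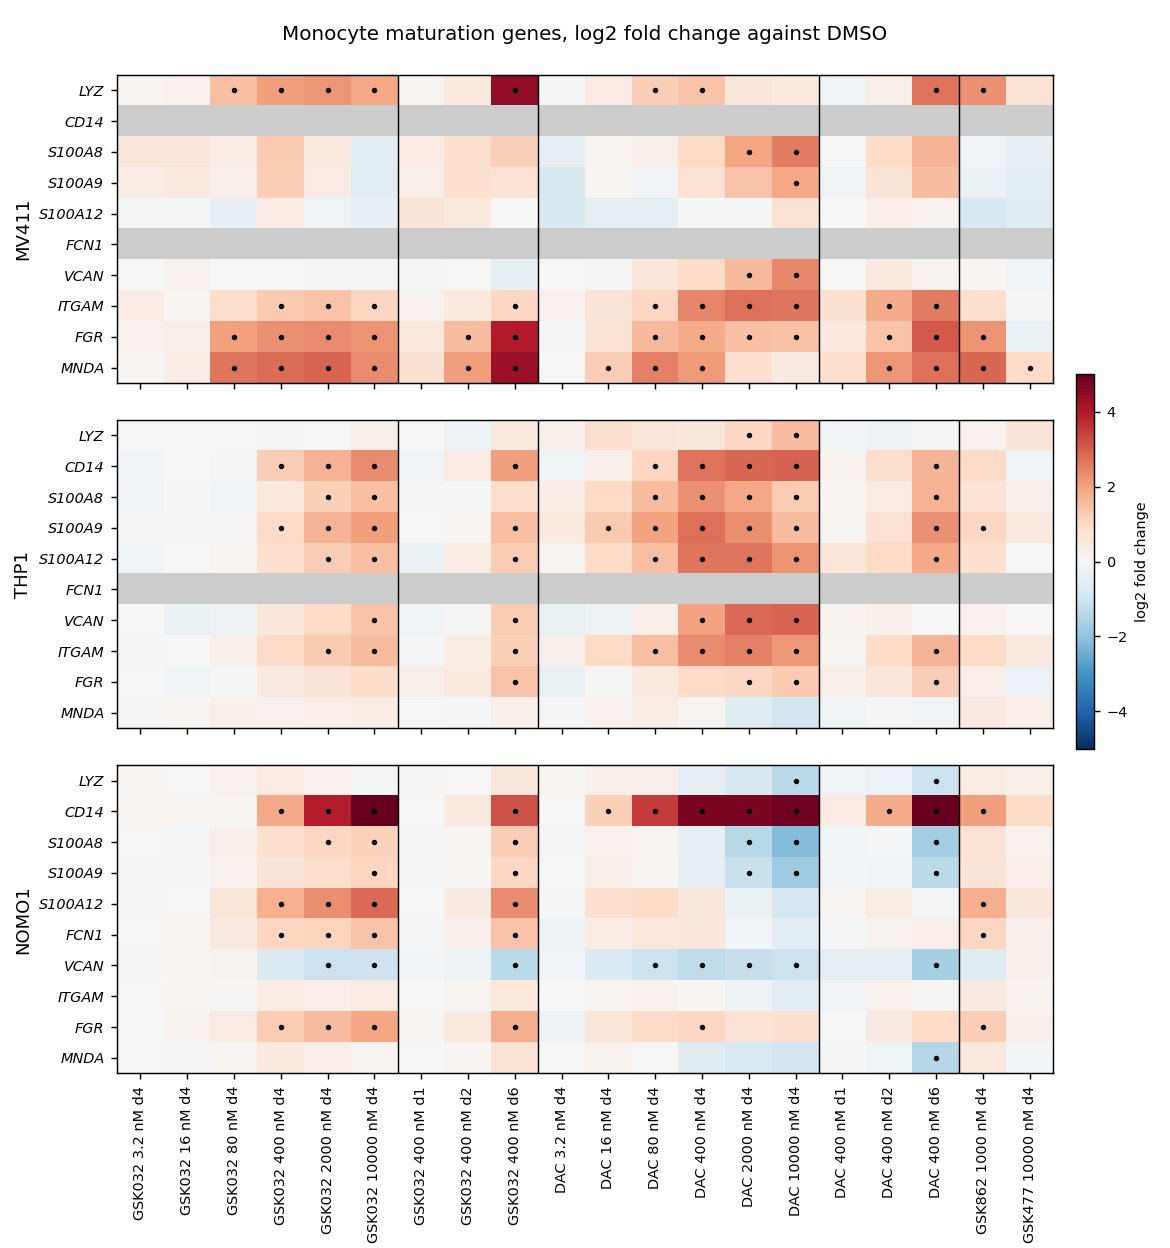
Log2 fold changes of the 10 genes against DMSO of the same day, by line, compound, dose and day, with a dot where a change was called grey where a gene was not tested and colours that go no deeper past a change of 5. Within MV411, LYZ, FGR and MNDA are deepest with GSK032 on day 6, ITGAM with 2000 nM DAC, and S100A8 and VCAN with 10000 nM DAC. CD14 is deepest in NOMO1 with both compounds. In NOMO1, VCAN is negative with both compounds at the higher doses, and S100A8 and S100A9 turn negative with DAC.

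LYZ, the lysozyme gene, was called higher in MV411 and in neither other line at this point. It reached 3260.3 and 2990.0 FPKM with GSK032 and 2172 and 1784 with DAC, against 809 and 677 with DMSO, and the groups did not overlap. The log2 fold changes were 2.08 ± 0.17 (adjusted p = 6.2e-11) and 1.41 ± 0.17 (adjusted p = 8.69e-08). In THP1 the values were 125 and 157 with GSK032 and 212 and 232 with DAC, against 142 and 154 with DMSO. The THP1 values with GSK032 overlapped those with DMSO, and the DAC difference of 0.58 stayed under the fold threshold. In NOMO1, where LYZ was already among the most abundant transcripts, it had 5013 and 5031 FPKM with GSK032 and 2489.8 and 2963 with DAC, against 3752 and 3714 with DMSO. GSK032 libraries lay above the DMSO libraries and DAC libraries below them, with log2 differences of 0.43 and -0.46, neither of them past the fold threshold.

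MNDA and FGR behaved like LYZ in MV411. MNDA, the HIN-200 nuclear gene, had 17.1 and 18.0 FPKM with GSK032 and 12.2 and 9.71 with DAC, against 1.97 and 2.24 with DMSO. Its log2 fold change of 2.80 ± 0.14 with GSK032 (adjusted p = 6.81e-16) was the largest among the members in that comparison, and that with DAC was 2.13 ± 0.14 (adjusted p = 4.53e-13). FGR, the myeloid Src-family kinase, had 38.6 and 33.4 FPKM with GSK032 and 26.4 and 27.1 with DAC, against 6.55 and 7.44 with DMSO. All treated libraries lay above all DMSO libraries for both genes. FGR rose in NOMO1 as well, where it had 45.4 and 54.9 with GSK032 and 39.5 and 44.9 with DAC, against 19.6 and 21.5 with DMSO (log2 fold changes 1.26 ± 0.19 and 1.02 ± 0.19; adjusted p = 8.17e-06 and 2.84e-05). The DAC call of FGR in NOMO1 sat at the fold threshold and was lost without the second DAC library (0.93), without the first DMSO library (0.95) and with a pseudocount of 1 (1.00). MNDA of NOMO1 moved apart with the compounds, at 189 and 171 with GSK032 and 79.6 and 84.9 with DAC, against 132 and 122 with DMSO, with neither difference past the fold threshold. In THP1, MNDA stood at 66.9 and 68.1 with GSK032 and 68.4 and 60.0 with DAC, against 66.4 and 52.2 with DMSO, and was not called.

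ITGAM, the αM integrin chain, rose with DAC in MV411 and THP1. MV411 libraries had 3.90 and 3.62 FPKM with GSK032 and 8.21 and 9.40 with DAC, against 1.21 and 1.19 with DMSO, log2 fold changes of 1.32 ± 0.24 (adjusted p = 6.65e-05) and 2.45 ± 0.24 (adjusted p = 2.77e-09). THP1 libraries had 14.7 and 16.0 with GSK032 and 41.2 and 41.6 with DAC, against 8.43 and 7.11 with DMSO. The DAC difference in THP1 was 2.35 ± 0.12 (adjusted p = 1.16e-15), while the GSK032 difference of 0.94 was just under the fold threshold with libraries that did not overlap. NOMO1, with 146 and 149 with GSK032, 123 and 123 with DAC and 112 and 116 with DMSO, had the highest level and no call.

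CD14, the lipopolysaccharide co-receptor, rose in THP1 and NOMO1 with both compounds. In NOMO1 it had 7.37 and 8.59 FPKM with GSK032 and 49.9 and 71.7 with DAC, against 1.77 and 1.82 with DMSO. The log2 fold changes were 1.88 ± 0.24 (adjusted p = 1.04e-06) and 4.71 ± 0.24 (adjusted p = 7.16e-16). The DAC value was the largest among the tested members in any line at this dose and day. In THP1 it had 4.89 and 6.63 with GSK032 and 15.2 and 18.0 with DAC, against 2.03 and 2.22 with DMSO. These groups did not overlap, and the log2 fold changes were 1.24 ± 0.23 (adjusted p = 0.000108) and 2.70 ± 0.23 (adjusted p = 7.58e-11). In MV411, CD14 stayed low, at 0.246 and 0.238 with GSK032 and 0.314 and 0.213 with DAC, against 0.280 and 0.192 with DMSO, and its highest value in any of the 52 MV411 libraries was 1.33 FPKM, with 10000 nM DAC.

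S100A8 and S100A9, the calprotectin subunits, are neighbours on chromosome 1 (GRCh38 153390032 to 153391188 and 153357854 to 153361027), with S100A12 between them (153373706 to 153375649). In THP1 S100A9 had 191 and 222 FPKM with GSK032 and 664 and 708 with DAC, against 108 and 96.6 with DMSO. S100A8 had 54.5 and 63.9 with GSK032 and 191 and 216 with DAC, against 41.1 and 40.9 with DMSO. Treated libraries lay above DMSO libraries throughout, with DAC above GSK032. The log2 fold changes with DAC were 2.74 ± 0.13 for S100A9 (adjusted p = 9.35e-16) and 2.29 ± 0.13 for S100A8 (adjusted p = 3.75e-14). With GSK032, S100A9 was called at 1.01 ± 0.13 (adjusted p = 1.38e-06) and S100A8, at 0.52, was not. That S100A9 call lay at the fold threshold: it was 0.90 without the second GSK032 library, 0.93 without the second DMSO library and 0.96 with libraries scaled to an equal sum, and the number of THP1 members called with GSK032 ran from 1 to 4 when 1 library was left out (4 without the first GSK032 library). In NOMO1 S100A9 had 14402 and 14297 FPKM with GSK032 and 6325 and 7436 with DAC, against 9016 and 9096 with DMSO, above DMSO with one compound and below it with the other, and neither was called. In MV411 S100A9 had 16.2 and 16.8 with GSK032 and 10.6 and 12.8 with DAC, against 7.00 and 6.56 with DMSO. The MV411 groups did not overlap, but the differences of 1.22 ± 0.80 and 0.74 ± 0.80 had wide errors (adjusted p = 0.261 and 0.531). Without the library that stands apart the SE of S100A9 was 0.59, and neither difference was called (adjusted p = 0.115 and 0.368).

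S100A12, the related alarmin, had 597 and 689 FPKM in NOMO1 with GSK032 and 257 and 289.6 with DAC, against 187 and 183 with DMSO. All treated libraries lay above DMSO, and the difference passed the threshold with GSK032 (1.79 ± 0.16, adjusted p = 1.09e-09) and not with DAC (0.56). In THP1 the order was the reverse, with 2.19 and 3.13 with GSK032 and 10.8 and 10.4 with DAC, against 0.975 and 1.57 with DMSO, and a call with DAC at 2.67 ± 0.30 (adjusted p = 2.75e-08). FCN1, the M-ficolin gene, was tested in NOMO1 alone, where it had 115 and 135 with GSK032 and 76.4 and 102 with DAC, against 54.5 and 64.8 with DMSO. It was called with GSK032 at 1.06 ± 0.23 (adjusted p = 0.00114), close to the fold threshold, and fell under it without the second GSK032 library (0.95) or the first DMSO library (0.94).

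VCAN, the versican gene, went in opposite directions in THP1 and NOMO1. THP1 had 11.2 and 11.0 FPKM with GSK032 and 30.5 and 32.3 with DAC, against 6.71 and 8.04 with DMSO. NOMO1 had 20.9 and 13.9 with GSK032 and 12.5 and 10.3 with DAC, against 33.4 and 23.8 with DMSO. With DAC it rose by 2.02 ± 0.24 in THP1 (adjusted p = 9.06e-08), while the log2 change in NOMO1 was -1.28 ± 0.18 (adjusted p = 5.33e-07). In MV411 it had 0.8 and 0.677 with DAC, against 0.235 and 0.0909 with DMSO, a log2 difference of 0.91 that was not called, while the authors' deposited table gives a log2 fold change of 2.15. The DMSO level itself moved with the day of culture, at 2.18 and 2.67, 1.4 and 1.66, 6.71 and 8.04 and 4.16 and 3.83 FPKM in THP1 on days 1, 2, 4 and 6.

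Over the days at 400 nM, no member was called on day 1 in any line with either compound, and calls appeared from day 2. On day 1 0.136%, 0.0215% and 0.0337% of all genes were called with GSK032 in MV411, THP1 and NOMO1, and 0.459%, 0.155% and 0.409% with DAC. MNDA of MV411 had the largest day 1 differences among the tested members, with 5.16 and 6.11 FPKM with GSK032 and 5.59 and 6.92 with DAC, against 3.27 and 3.04 with DMSO, log2 differences of 0.75 and 0.88. The groups did not overlap. On day 2, MV411 had 2 of 8 members called with GSK032 (1.81% of all genes) and 3 of 8 with DAC (2.73%), FGR and MNDA with both and ITGAM with DAC. NOMO1 had CD14 called with DAC on day 2, as 1 of 10 members beside 3.91% of all genes, and none with GSK032 (0.395%). THP1 had none of 9 with either compound on day 2, beside 0.383% and 1.26% of all genes.

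By day 6 the MV411 changes of LYZ, MNDA and FGR were larger than on day 4 with both compounds, with GSK032 above DAC, while that of ITGAM with GSK032 was 1.05, against 1.32 on day 4. LYZ had 7740.0 and 9119 FPKM with GSK032 and 2573 and 2503 with DAC, against 366 and 409 with DMSO, so that the GSK032 libraries held the highest LYZ levels of all 156 libraries. Its log2 fold changes were 4.44 ± 0.17 and 2.71 ± 0.17 (adjusted p = 1.08e-18 and 1.23e-13), against a DMSO level that had fallen with culture time. MNDA had 34.0 and 38.3 with GSK032 and 12.3 and 12.0 with DAC, against 1.41 and 1.33 with DMSO. FGR had 56.4 and 61.9 with GSK032 and 30.2 and 34.0 with DAC, against 3.25 and 3.46 with DMSO. None of these groups overlapped. On day 4 DMSO had stood higher, at 1.97 and 2.24 FPKM for MNDA and 6.55 and 7.44 for FGR. MNDA with DAC had 12.2 and 9.71 FPKM on day 4, so its larger change on day 6 was set against a lower DMSO level. With each compound 4 of 8 members were higher on day 6 in MV411, LYZ, ITGAM, FGR and MNDA, where 8.22% of all genes were higher with GSK032 and 7.03% with DAC. ITGAM with GSK032, at 3.84 and 1.98 FPKM against 1.03 and 1.14 with DMSO, fell under the fold threshold when libraries were scaled to an equal sum (0.94). Without the library that stands apart, S100A8 (1.70) and S100A9 (1.55) of MV411 were called with DAC on day 6 too.

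In THP1, 6 of 9 members were higher on day 6 with GSK032 (3.29% of all genes), CD14, S100A9, S100A12, VCAN, ITGAM and FGR, and 6 of 9 with DAC (7.26%), with S100A8 in place of VCAN. CD14 had 10.4 and 12.6 FPKM with GSK032 and 6.91 and 11.0 with DAC, against 2.17 and 2.49 with DMSO. GSK032 libraries on day 6 lay above those of day 4, and DAC libraries below those of day 4. VCAN had 9.39 and 11.2 with GSK032 and 3.47 and 4.65 with DAC, against 4.16 and 3.83 with DMSO, and the DAC libraries, far above DMSO on day 4, overlapped it here.

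In NOMO1 the compounds parted by day 6. With GSK032, 6 of 10 members were higher (4.25% of all genes), CD14, S100A8, S100A9, S100A12, FCN1 and FGR, and VCAN was lower (0.987% of all genes lower). With DAC, CD14 was the 1 member higher, where 14.9% of all genes were higher, and 5 of 10 were lower, where 9.75% of all genes were: LYZ, S100A8, S100A9, VCAN and MNDA. S100A8 had 10576 and 8335 FPKM with GSK032 and 1098 and 1269.6 with DAC, against 4172 and 3755 with DMSO. The log2 fold changes were 1.25 ± 0.15 and -1.74 ± 0.15 (adjusted p = 1.04e-07 and 1.81e-11). MNDA had 219 and 182 with GSK032 and 47.7 and 42.3 with DAC, against 132 and 111 with DMSO. CD14 went the other way with DAC, at 24.7 and 29.7 FPKM with GSK032 and 104 and 152 with DAC, against 1.92 and 3.23 with DMSO (log2 fold changes 3.20 ± 0.24 and 5.39 ± 0.24; adjusted p = 1.93e-11 and 1.93e-17). The NOMO1 libraries of day 6 with DAC thus had CD14 above those with GSK032 and DMSO of that day, and S100A8, S100A9 and LYZ below them. LYZ of NOMO1, at -1.06 with DAC, fell under the fold threshold after either rescaling (-0.75 and -0.84).

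**Figure D3:**
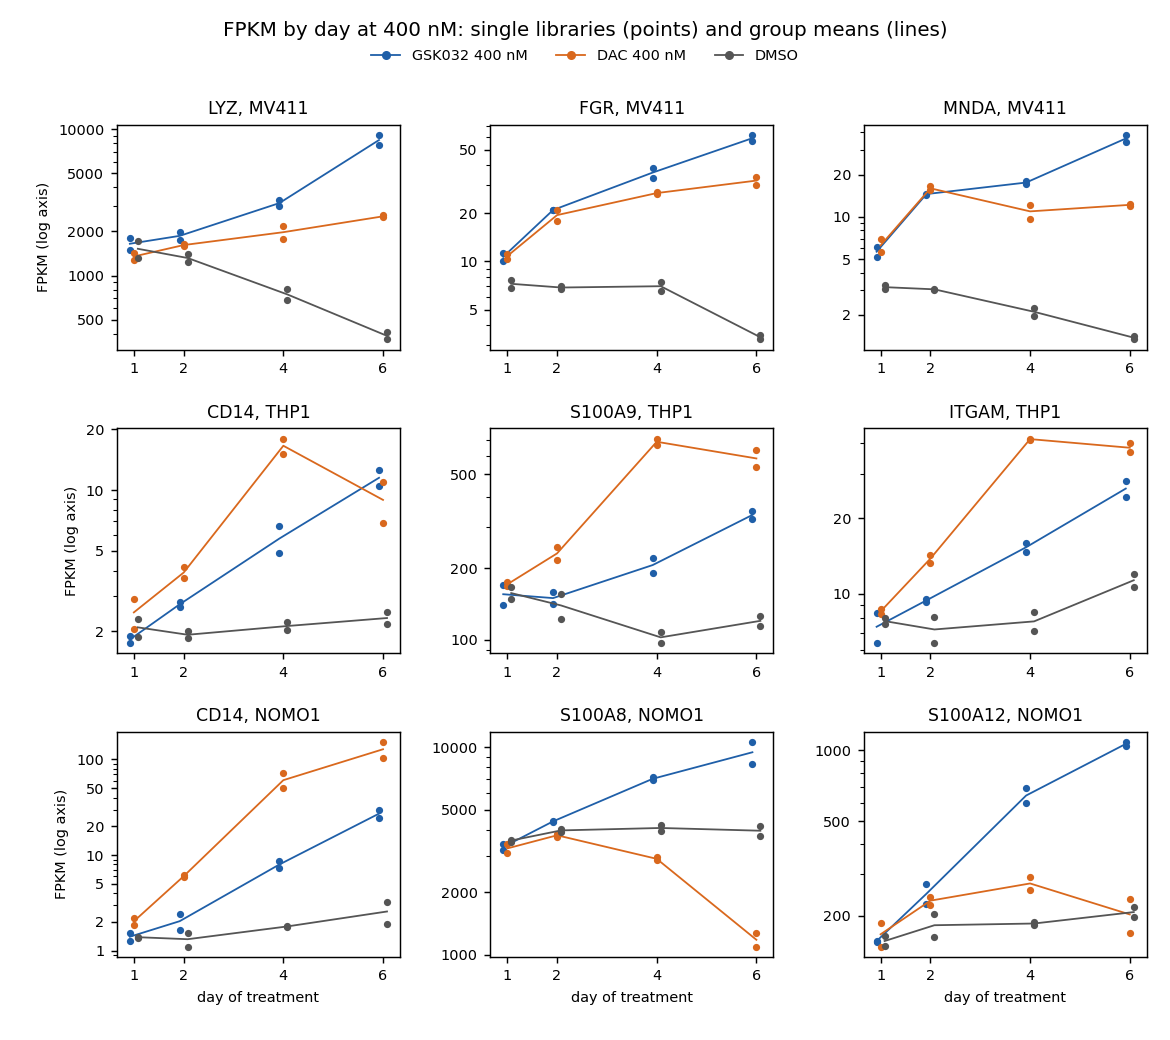
FPKM on a log axis against day (1, 2, 4 and 6) at 400 nM for 3 genes in each line, with points for single libraries and lines through group means of GSK032, DAC and DMSO. LYZ of MV411 with GSK032 ends at 7740.0 and 9119 FPKM, CD14 of NOMO1 with DAC at 104 and 152 FPKM, and S100A8 of NOMO1 with DAC below DMSO.

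The day 6 effect was set against the day 1 effect in a direct test, as day 6 minus day 1. In MV411 3 of 8 members were called with GSK032 (11.6% of all genes) and 4 with DAC (8.42%). In THP1 6 of 9 were called with GSK032 (3.32%) and 5 with DAC (8.56%). In NOMO1 7 of 10 were called with GSK032 (4.25%), VCAN in the negative direction, and 6 with DAC (20.5%), of which CD14 and FGR were positive and S100A8, S100A9, VCAN and MNDA negative. With an equal sum per library, the negative calls of VCAN with GSK032 and of S100A9, VCAN and MNDA with DAC in NOMO1 were lost. The S100A12 calls of THP1 with both compounds were lost as well. CD14 in NOMO1 with DAC had the largest, 4.97 ± 0.35 (adjusted p = 1.18e-12), and LYZ in MV411 with GSK032 the next, 4.32 ± 0.24 (adjusted p = 2.49e-14). The MV411 values include the change of DMSO itself from day 1 to day 6, a log2 difference of -1.96 for LYZ, -1.01 for FGR and -0.96 for MNDA. Mean LYZ of MV411 went from 1648.9 FPKM on day 1 to 8429.5 on day 6 with GSK032, and from 1349.7 to 2537.8 with DAC.

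Over the 6 doses at day 4, responses differed in shape as well as size. In MV411, LYZ with GSK032 had means of 743 FPKM in DMSO, 792 at 3.2 nM, 867 at 16 nM, 2079 at 80 nM, 3125 at 400 nM, 3458 at 2000 nM and 2813 at 10000 nM. With DAC the means were 715, 984, 1729, 1978, 1152 and 1069 at the same doses, highest at 400 nM and lower again beyond it. MNDA of MV411 was also highest at a middle dose of DAC, with 14.7 and 14.0 FPKM at 80 nM and 3.60 and 2.54 at 10000 nM, while with GSK032 it had 15.8 and 16.5 at 80 nM and 13.0 and 12.6 at 10000 nM. These libraries do not overlap between the compounds at 10000 nM. VCAN, S100A8 and S100A9 of MV411 went the other way, climbing to 10000 nM of DAC, while ITGAM had its highest mean at 2000 nM. VCAN had 0.8 and 0.677 at 400 nM, 1.5 and 1.51 at 2000 nM and 3.14 and 2.75 at 10000 nM. Without the GSK862 library that stands apart, S100A9 was also called at 2000 nM of DAC (1.41).

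The fitted change from the lowest to the highest dose gives a test of this trend. In MV411 it was called higher for 4 of 8 members with GSK032 (11.6% of all genes), LYZ, ITGAM, FGR and MNDA, and for 6 with DAC (14.5%), S100A8, S100A9, S100A12, VCAN, ITGAM and FGR, without LYZ and MNDA. ITGAM had 2.87 ± 0.20 with DAC (adjusted p = 3.63e-13). VCAN reached 1 FPKM only in the 4 libraries of 2000 and 10000 nM DAC, so that it had to be high there and its calls at these doses, in the trend and in later comparisons, support nothing, and S100A12 reached it in 5 single libraries of MV411. S100A12 (1.06) and FGR (0.96) of MV411 were no longer called with DAC when libraries were scaled to an equal sum. In THP1 7 of 9 were higher with GSK032 (5.94%), all but LYZ and MNDA, and 8 with DAC (12.5%), where MNDA alone was lower (8.27% of all genes), a call at -1.02 that was -0.88 after scaling by median ratios. FGR of THP1 with GSK032 was 0.83 with an equal sum per library. With an equal sum per library 5 of the 8 DAC calls remained, LYZ (0.63), S100A8 (0.75) and S100A9 (0.91) falling under the fold threshold. S100A9 of THP1 had its highest mean at 400 nM with DAC, 664 and 708 FPKM, and 279.8 and 326 at 10000 nM, while with GSK032 it had 399 and 483 at 10000 nM, its highest. In THP1 VCAN rose with DAC by 3.91 ± 0.21 over the range (adjusted p = 5.78e-16), to 56.9 and 60.9 FPKM at 10000 nM.

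In NOMO1 CD14 had the largest trend with each compound. With GSK032 it had 1.96 and 2.00 FPKM at 80 nM, 7.37 and 8.59 at 400 nM, 28.9 and 41.5 at 2000 nM and 76.0 and 120.3 at 10000 nM. With DAC it had 5.62 and 4.08 at 16 nM, 19.9 and 32.4 at 80 nM, 49.9 and 71.7 at 400 nM, 57.4 and 62.0 at 2000 nM and 61.5 and 69.7 at 10000 nM. CD14 thus passed the threshold against DMSO from 16 nM of DAC and from 400 nM of GSK032, and the fitted changes were 5.67 ± 0.21 with GSK032 and 5.13 ± 0.21 with DAC (adjusted p = 1.54e-19 and 4.01e-19). With GSK032, 6 of 10 NOMO1 members had a higher trend (9.54% of all genes) and VCAN a lower one (3.6%). With DAC, CD14 was the 1 member higher (18.0%) and 5 of 10 were lower (12.0%): LYZ, S100A8, S100A9, S100A12 and MNDA. S100A12 of NOMO1 shows the split: with GSK032 it reached 1157 and 1509.5 FPKM at 10000 nM, while with DAC it had 410.6 and 298 at 80 nM and 96.1 and 109 at 10000 nM. Its fitted changes were 3.14 ± 0.14 with GSK032 (adjusted p = 7.28e-18) and -1.09 ± 0.14 with DAC (adjusted p = 3.01e-08). The DAC trends of S100A12 (-0.87) and MNDA (-0.93) were under the fold threshold with an equal sum per library, which left 3 members lower and 2 higher.

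**Figure D4:**
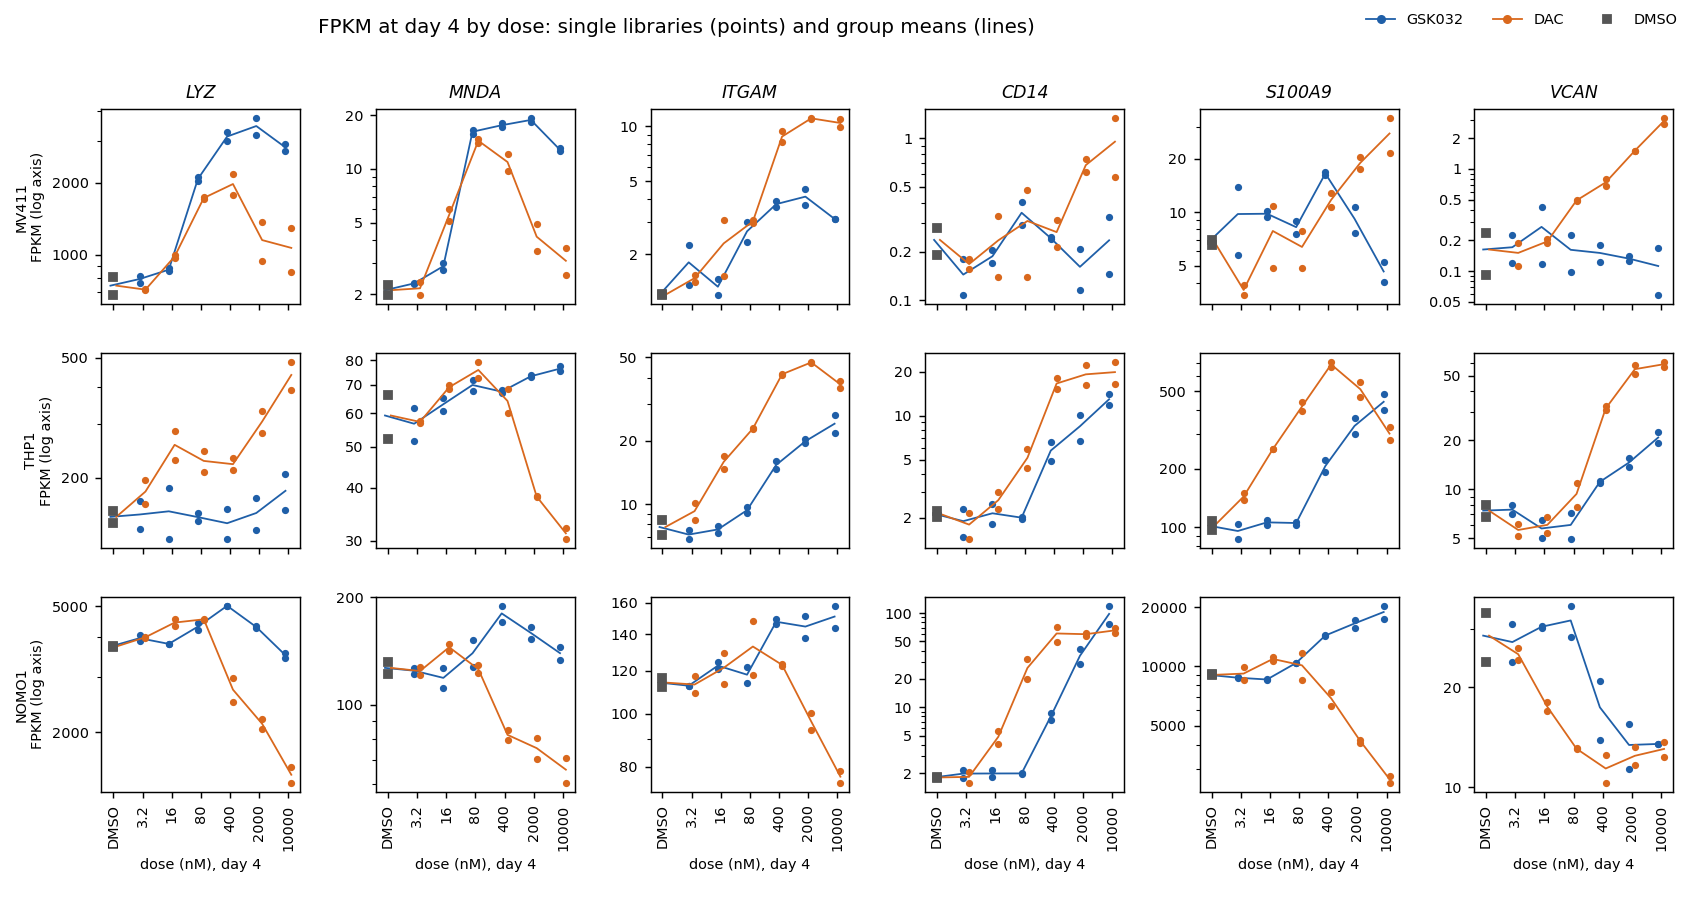
FPKM at day 4 on log axes against dose (3.2 to 10000 nM, DMSO at the left) for LYZ, MNDA, ITGAM, CD14, S100A9 and VCAN in each line, with points for single libraries and lines through group means. DAC curves of MNDA turn down after 80 nM in MV411 and THP1 and those of S100A9 in NOMO1 after 16 nM, while CD14 of NOMO1 climbs to 76.0 and 120.3 FPKM with GSK032 and 61.5 and 69.7 FPKM with DAC.

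GSK862 at 1000 nM gave a pattern like that of GSK032 at 400 nM, as values side by side at doses that differ. On day 4 it raised LYZ, FGR and MNDA in MV411 (3 of 8 members, 4.2% of all genes), S100A9 in THP1 (1 of 9, 1.17%) and CD14, S100A12, FCN1 and FGR in NOMO1 (4 of 10, 2.41%). MNDA of MV411 had 17.9 and 19.2 FPKM with 1000 nM GSK862 and 17.1 and 18.0 with 400 nM GSK032, against 1.97 and 2.24 with DMSO. S100A12 of NOMO1 had 624 and 683 with 1000 nM GSK862 and 597 and 689 with 400 nM GSK032, against 187 and 183 with DMSO. The values of the GSK compounds lay near each other and above DMSO. The THP1 call of S100A9, 1.03, was 0.98 with an equal sum per library. On day 2 in MV411, 3 of 8 members were higher with GSK862 (1.35% of all genes), FGR, MNDA and S100A8. The S100A8 call of 2.45 came from the library that stands apart: it was 0.57 and not called without it, which left 2 members.

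GSK477 at 10000 nM moved 1 member. On day 4 MNDA of MV411 had 4.40 and 5.10 FPKM with GSK477, against 1.97 and 2.24 with DMSO, a log2 fold change of 1.01 ± 0.14 (adjusted p = 4.1e-05) that was 0.95 after scaling by median ratios. That was 1 of 8 members in MV411, beside 0.477% of all genes, and 0 of 9 in THP1 (0.0387%) and 0 of 10 in NOMO1 (0.212%) were called. Values not called were still not all at the DMSO level: CD14 of NOMO1 had 3.79 and 4.04 with GSK477, against 1.77 and 1.82 with DMSO, and LYZ of THP1 210.4 and 258, against 142 and 154 with DMSO. Set against GSK477 at the same dose and day, 10000 nM GSK032 differed for 4 of 8 members in MV411 (21.5% of all genes), 7 of 9 in THP1 (7.92%) and 5 of 10 in NOMO1 (10.8%), VCAN of NOMO1 being the 1 that was lower. DAC at 10000 nM differed from GSK477 for 5 of 8 (26.6%), 8 of 9 (16.8%) and 6 of 10 (23.5%) in the same lines. Without the library that stands apart it was 6 of 8 in MV411, with S100A12 (1.355) called too. These MV411 counts with DAC include VCAN, which had to be high with DAC to pass the filter. CD14 of NOMO1 had the largest of the differences from GSK477, with 76.0 and 120.3 FPKM with GSK032 and 3.79 and 4.04 with GSK477. The log2 difference was 4.45 ± 0.24 (adjusted p = 5.34e-15). With an equal sum per library, THP1 calls against GSK477 fell under the fold threshold for ITGAM with GSK032 (0.86) and for S100A8 (0.67) and S100A9 (0.71) with DAC.

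GSK032 was set directly against DAC at 400 nM and day 4. S100A8, S100A9 and S100A12 had calls of opposite sign in THP1 and NOMO1, while CD14 was lower with GSK032 in both. In THP1 6 of 9 members were lower with GSK032 than with DAC (4.53% of all genes called): CD14, S100A8, S100A9, S100A12, VCAN and ITGAM. S100A8 had 54.5 and 63.9 FPKM with GSK032 and 191 and 216 with DAC, a log2 difference of -1.77 ± 0.13 (adjusted p = 4.46e-11). In NOMO1 5 of 10 differed (13.2% of all genes), with S100A8, S100A9, S100A12 and MNDA higher and CD14 lower with GSK032. S100A8 there had 7153 and 6941 with GSK032 and 2853 and 2952 with DAC (1.28 ± 0.15, adjusted p = 2.16e-08), and CD14 differed by -2.83 ± 0.24 (adjusted p = 7.63e-11). After scaling by median ratios S100A9 (0.93) and MNDA (0.99) of NOMO1 were under the fold threshold. In MV411 ITGAM was the 1 of 8 members called (1.91% of all genes), at -1.13 ± 0.24 (adjusted p = 0.00264), a call lost with an equal sum per library (-0.79). LYZ of MV411 differed by 0.67 with a 95% interval of 0.32 to 1.01, so that a difference of 1 log2 unit lies inside the interval.

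These differences depended on dose and day. On day 6 at 400 nM LYZ (1.73) and MNDA (1.53) were higher and ITGAM (-1.56) lower with GSK032 than with DAC in MV411, 3 of 8 members beside 2.27% of all genes. In THP1 1 of 9 differed, VCAN at 1.25 (3.09% of all genes), with the sign opposite to day 4. In NOMO1 7 of 10 differed (17.6%), all higher with GSK032 but CD14, and FCN1 was under the fold threshold after either rescaling (0.88 and 0.93). At 10000 nM on day 4, 6 of 8 members differed in MV411 (11.5%), 3 of 9 in THP1 (11.1%) and 7 of 10 in NOMO1 (15.9%). MV411 then split within itself, with LYZ (1.43) and MNDA (1.91) higher and S100A8 (-3.15), S100A9 (-2.43) and ITGAM (-1.59) lower with GSK032. VCAN (-2.50) is counted as lower too, but it passed the filter only through high doses of DAC, so its call supports nothing. S100A9 of MV411 was not called after scaling to an equal sum, and without the library that stands apart S100A12 (-1.156) was called as well, which made 7 of 8. S100A12 of NOMO1 had the widest gap there, with 1157 and 1509.5 FPKM with GSK032 and 96.1 and 109 with DAC (3.68 ± 0.16, adjusted p = 2.26e-17).

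**Figure D5:**
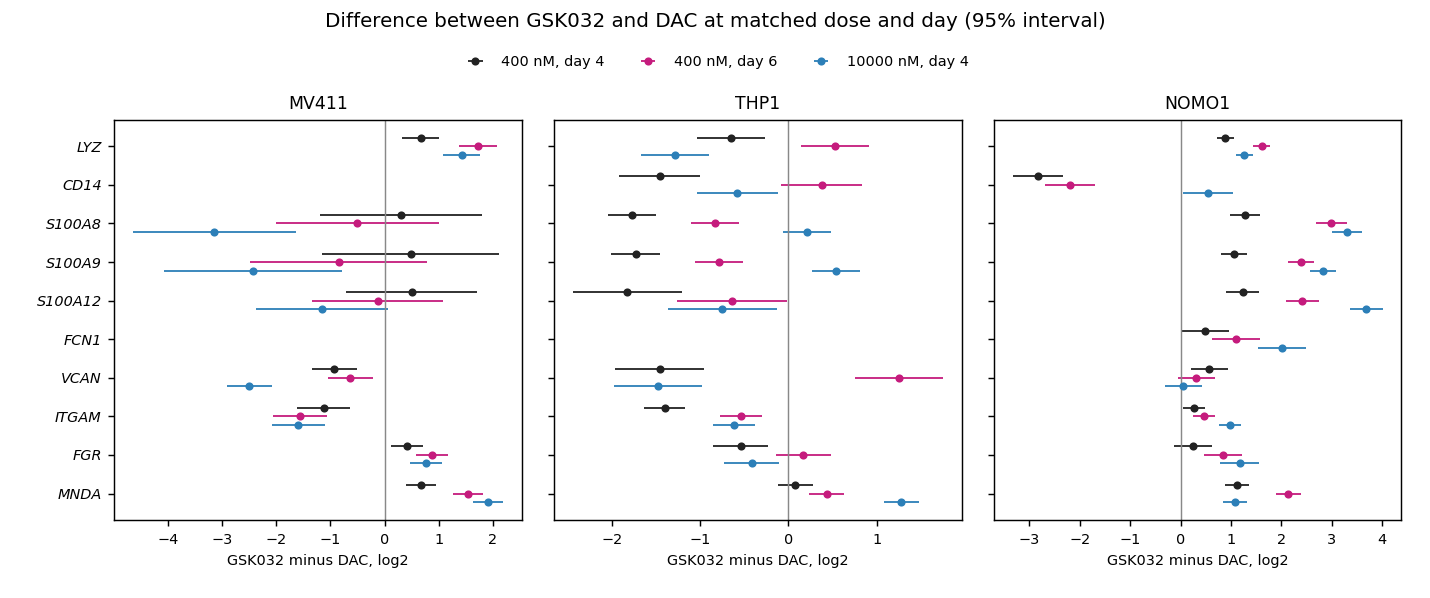
Log2 difference of GSK032 minus DAC for each tested member, by line, at 400 nM on days 4 and 6 and at 10000 nM on day 4 (colours), with a bar for the 95% interval. In THP1 S100A8, S100A9 and CD14 lie below 0 at 400 nM on day 4, and in NOMO1 S100A8, S100A9 and S100A12 lie above 0 in all 3 comparisons, while CD14 lies below 0 at 400 nM on both days and above 0 at 10000 nM.

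The size of the 400 nM day 4 effect was compared between lines in a joint fit of 17787 genes tested in all 3, which leaves out CD14 and FCN1. With GSK032, LYZ, FGR and MNDA differed between MV411 and THP1 (3 of 8 members; 4.0% of all genes) and between MV411 and NOMO1 (3 of 8; 6.27%), with the larger effect in MV411 each time. MNDA rose by 2.80 in MV411 and had 0.20 in THP1, a difference of 2.60 ± 0.17 (adjusted p = 5.41e-23). Between THP1 and NOMO1, VCAN was the 1 of 8 that differed (1.83% of all genes). With DAC, 4 of 8 differed between MV411 and THP1 (5.41%), 4 of 8 between MV411 and NOMO1 (9.55%) and 6 of 8 between THP1 and NOMO1 (7.89%). The last were LYZ, S100A8, S100A9, S100A12, VCAN and ITGAM, each with the higher effect in THP1. VCAN had the largest of them, 3.30 ± 0.30 (adjusted p = 1.41e-15), and S100A9 followed with 3.14 ± 0.68 (adjusted p = 0.000179). The joint fit shares 1 estimate of spread per gene over all 3 lines, so each SE also reflects scatter in the line not compared. Without the MV411 library that stands apart, the SE of this S100A9 difference was 0.51. Without the MV411 library that stands apart, S100A12 with GSK032 between MV411 and NOMO1 (-1.38), and S100A8 with DAC between MV411 and THP1 (-1.28) and between MV411 and NOMO1 (1.5), were called as well.

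The members fell into different groups in each line. Over the 26 group means of a line, Pearson's r of S100A8 with S100A9 was 0.97 in MV411, 0.98 in THP1 and 1.00 in NOMO1, and the ratio of S100A9 to S100A8 stayed between 2.15 and 3.88 over the THP1 libraries and between 1.87 and 3.19 over the NOMO1 libraries. LYZ went with MNDA in MV411 (0.90) and in NOMO1 (0.89), and FGR with MNDA in MV411 (0.87), while in THP1 MNDA ran against VCAN (-0.73) and FGR (-0.40). CD14 went with FGR (0.96) and ITGAM (0.94) in THP1, and against LYZ (-0.66) and VCAN (-0.64) in NOMO1. These means share libraries of DMSO and the treatments themselves, so the values of r are descriptions. The MV411 means include the library that stands apart. Among other genes tested in all lines, those most like a member by the lowest r of the 3 lines were PTAFR (0.90), the platelet-activating factor receptor gene, DCAF4L1 (0.89) and ARAP3 (0.89) for FGR, and TMEM105 (0.84), RNASE2 (0.83) and SRGN (0.80), the serglycin gene, for MNDA. For ITGAM they were PFKFB3 (0.80), NCF1B (0.78) and LPAR2 (0.77), NCF1B being a copy of NCF1 whose reads can be counted for it, and for LYZ BASP1 (0.74), MDK (0.68) and IFT57 (0.65). The S100 genes had weaker partners, with SMPDL3A (0.68) first for S100A8 and PADI4 (0.65) first for S100A12, and VCAN had AC138207.6 (0.73).

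Other genes of the program, listed by role, moved with the members to different extents. The shares of all genes that rose in the same comparisons were 6.55%, 1.94% and 2.55% with GSK032 and 6.86%, 6.23% and 13.2% with DAC in MV411, THP1 and NOMO1. Of 40 monocyte and macrophage receptors and effectors, 9 of 36 tested rose and 2 fell with 400 nM GSK032 on day 4 in MV411, 4 of 37 rose in THP1 and 5 of 40 in NOMO1. With DAC 11 of 36 rose and 1 fell in MV411, 15 of 37 rose in THP1, and 20 of 40 rose and 2 fell in NOMO1. The median log2 fold change of the list was 0.58 (MV411), 0.49 (THP1) and 0.41 (NOMO1) with GSK032, and 0.62, 0.92 and 1.00 with DAC, beside medians of all genes at or near 0. CYBB, the catalytic subunit of the phagocyte oxidase, rose with GSK032 by 2.28 in MV411 and 1.27 in THP1. SERPINA1, the gene of α1-antitrypsin, rose in NOMO1 by 3.40 with GSK032 and 5.19 with DAC. LY96, the partner of TLR4 that receives lipopolysaccharide from CD14, rose by 2.51 with DAC in THP1, and in MV411 it was lower by a log2 change of -1.02 with GSK032. Among 16 myeloid transcription factors, 5 of 14 rose with DAC in MV411, 7 of 16 in THP1 and 5 of 16 in NOMO1, and IRF8 fell in THP1 (-1.05) and NOMO1 (-1.62). With GSK032, 2 of 14, 1 of 16 and 0 of 16 rose, of which the THP1 and NOMO1 counts lie near the shares of all genes.

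The relatives of the members did not share one course with them. Of 13 other S100 genes of the same chromosome 1 cluster, 8 of 11 tested rose with DAC in NOMO1, beside 13.2% of all genes, the line where S100A8 and S100A9 did not: S100A16 rose by 4.98, S100A1 by 2.27 and S100A13 by 2.20. In THP1 5 of 10 rose and in MV411 2 of 7. With GSK032 S100A16 was the 1 that rose in THP1 and in NOMO1, and S100A16 and S100A13 rose in MV411. Of the Src-family kinases beside FGR, SRC rose with DAC in all 3 lines, by 2.48 in MV411, 1.59 in THP1 and 2.28 in NOMO1, and LCK in NOMO1 by 3.27. IFI16, a HIN-200 gene like MNDA, rose with DAC by 2.15 in THP1 and 1.47 in NOMO1, where MNDA did not. ITGAX, the αX chain that like ITGAM pairs with ITGB2, rose with DAC by 1.02 in THP1 and 1.3 in NOMO1. CD93, listed beside the ficolins, rose in MV411 by 2.88 with GSK032 and 1.86 with DAC. CD44, the hyaluronan receptor, rose in NOMO1 with DAC by 1.39, where VCAN fell.

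Markers of neighbouring states moved beside the members. With DAC in NOMO1 13.2% of all genes rose and 5.94% fell, with DAC in THP1 6.23% and 1.93%, and with GSK032 in MV411 6.55% rose. Of the neutrophil and primary granule genes, 6 of 12 tested fell and 2 rose with DAC in NOMO1, and their summed level was 1220.0 to 1289.5 FPKM with DAC, against 5016 to 5744 with DMSO, in the libraries where S100A8, S100A9 and LYZ were lower. In THP1 3 of 8 fell and 1 rose with DAC (3064 to 3078 FPKM summed, against 5351 to 5429 with DMSO). In MV411 4 of 8 rose with GSK032 (2829.9 to 3084, against 1371 to 1498 with DMSO), MPO among them by 4.79. None of these 13 markers was at 0 in every library. Of the progenitor genes, 4 of 6 fell with DAC in NOMO1, where FLT3 had a log2 change of -2.97 and KIT of -2.18, and the list summed to 132 to 141 FPKM with DAC, against 325 to 337 with DMSO. With GSK032 in NOMO1, KIT (-1.71) and FLT3 (-1.28) fell. KIT rose in MV411 with DAC by 2.39, the 1 of 6 tested progenitor genes to rise there (6.86% of all genes). Of these 6, 1 fell (3.34% of all genes), and their median log2 fold change was -0.50. The list summed to 404 to 410 FPKM with DAC in MV411, against 635 to 641 with DMSO. In NOMO1 the 3 tested erythroid and megakaryocyte markers rose with both compounds (ITGA2B by 2.78 with GSK032 and 5.18 with DAC). Their list summed to 31.9 to 35.1 FPKM with GSK032 and 96.7 to 114 with DAC, against 5.49 to 6.40 with DMSO. In MV411, where CD14 stayed low, 2 of 3 rose with each compound, and in THP1 0 of 2. The MV411 list summed to 13.3 to 15.7 FPKM with GSK032 and 18.1 to 18.4 with DAC, against 5.64 to 7.29 with DMSO. With DAC in NOMO1, 3 of 4 tested T-cell markers, 3 of 4 B-cell markers and 3 of 5 dendritic cell markers rose too, CD3D by 3.70 and CLEC10A by 3.30. Their part in the results of the members was not tested.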

How the data were processed

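RNA was sequenced from 156 libraries, 52 of each line (26 groups of 2), with paired reads and an RNeasy extraction per the labels' protocols. The authors deposited 1 table of FPKM per line for 59939 genes, and per the submitters' processing notes used Salmon 0.12.0, the hg38 build and DESeq2. They also deposited a table of log2 fold changes against DMSO, used only as an alternative. FPKM sums per library differed (1263 to 3073, in units of 1000), and counts were not used here.

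From these values log2(FPKM + 0.5) was fitted per line with limma 3.58.1 (R 4.3.3; moderated test with trend, all 26 groups sharing 1 estimate of spread), after keeping genes with at least 1 FPKM in 2 libraries, and p-values were adjusted by Benjamini and Hochberg over all genes of the line. A dose trend is the linear slope over 6 doses, each 5 times the last, times the 5 steps. Differences between lines came from a joint fit, with 1 estimate of spread per gene over all 3 lines. The code was tested on simulated data. Tables were made with Python 3.11.15 and pandas 2.3.3, and figures with matplotlib 3.10.9.

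Members and gene lists were chosen with earlier results of these data known, and support nothing by themselves. Genes likened to a member are the 3 with the highest value of the lowest Pearson r of the 3 lines. Alternatives were other pseudocounts (0.1 and 1), no filter, libraries scaled to an equal sum or by median ratios, no trend, a replicate block, the 2 groups alone, 1 library left out, p alone and the authors' log2 table. Rescaling of comparisons other than 400 nM on day 4, and leaving out the MV411 libraries named in the text, were chosen after seeing the data. Fragments per library were estimated from steps between low values of 9846 genes with 1 transcript, of which 58.1% to 78.4% fell within 0.15 of a whole fragment, so that depth is approximate and no count test was run. These depths cover counting error only.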

Additional observations from a re-analysis of the deposited data

Results flagged for a closer look

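The effect of 400 nM on day 4 differed between lines for 21 member comparisons in the joint fit, each tested as the difference itself. For each pair of lines and compound 8 members were tested, and 1.83% to 9.55% of all genes were called. With GSK032, the effect in MV411 minus that in THP1 was 2.15 for LYZ, 1.85 for FGR and 2.60 for MNDA on the log2 scale, and MV411 minus NOMO1 gave 1.65 for LYZ, 1.02 for FGR and 2.29 for MNDA. THP1 minus NOMO1 gave 1.27 for VCAN. With DAC, MV411 minus THP1 gave -2.0 for S100A9, -2.75 for S100A12, -1.11 for VCAN and 2.01 for MNDA. MV411 minus NOMO1 gave 1.87 for LYZ, 2.18 for VCAN, 2.34 for ITGAM and 2.75 for MNDA. THP1 minus NOMO1 gave 1.04 for LYZ, 2.78 for S100A8, 3.14 for S100A9, 2.11 for S100A12, 3.30 for VCAN and 2.24 for ITGAM.

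The effect of 400 nM differed between day 6 and day 1 for 31 member comparisons, each tested as an interaction and given as day 6 minus day 1 on the log2 scale. In MV411 it was 4.32 for LYZ, 3.42 for FGR and 3.54 for MNDA with GSK032, and 2.88 for LYZ, 1.84 for ITGAM, 2.53 for FGR and 1.88 for MNDA with DAC. In THP1 with GSK032 it was 2.24 for CD14, 1.51 for S100A9, 1.58 for S100A12, 1.46 for VCAN, 1.26 for ITGAM and 1.12 for FGR. In THP1 with DAC it was 1.52 for CD14, 1.63 for S100A8, 2.15 for S100A9, 1.28 for S100A12 and 1.59 for ITGAM. In NOMO1 with GSK032 it was 3.19 for CD14, 1.35 for S100A8, 1.2 for S100A9, 2.36 for S100A12, 1.52 for FCN1, -1.20 for VCAN and 1.74 for FGR. In NOMO1 with DAC it was 4.97 for CD14, -1.62 for S100A8, -1.22 for S100A9, -1.19 for VCAN, 1.01 for FGR and -1.31 for MNDA. The S100A12 differences of THP1 were 1.57 with GSK032 and 1.155 with DAC when libraries were scaled to an equal sum, and no longer passed the test. In NOMO1 an equal sum also took away the calls of VCAN with GSK032 (-1.18) and of S100A9 (-0.90), VCAN (-0.88) and MNDA (-0.99) with DAC. The MV411 values include a fall of DMSO itself from day 1 to day 6, by log2 differences of -1.96 for LYZ, -1.01 for FGR and -0.96 for MNDA.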

How the results depend on the processing

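Of 23 member calls at 400 nM on day 4, 23 were kept under a pseudocount of 0.1, no filter, median ratios, no trend, a replicate block and the 2 groups alone, and 22 under a pseudocount of 1 and under an equal sum; with 1 library left out 86 of 92 were kept. A replicate block moved no member count (4 of MV411 and 2 of THP1 remained higher with GSK032), and same-numbered libraries deviated together only weakly (median r of 0.080 to 0.088 over pairs of groups, above 0.1 in 28.6% to 36.6% of them), so the numbers were not taken as pairs. Single genes still differed by number: the second library was the higher one in 26 of 26 groups for FCN1 of NOMO1 and LYZ of THP1, and in 24 for FGR of NOMO1. The FCN1 difference with GSK032 in NOMO1 was 1.078 between first libraries and 1.048 between second ones, and that of FGR with DAC 0.99 and 1.042, so that leaving out 1 library sets unlike numbers against each other, and both calls were kept with the block. Against the authors' deposited log2 fold changes, 54 of 54 values had the same sign, with a median gap of 0.022 and the widest, 1.25, for VCAN with DAC in MV411, and 8 of the 23 called values differed by more than their SE. Of 308 calls in other comparisons, 268 were kept with an equal sum and 289 with median ratios.

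Members higher with GSK032 in THP1 numbered 1 with an equal sum, 1 to 4 with 1 library left out and 6 by p alone. In NOMO1 p alone gave 9 higher and 1 lower with GSK032, and 4 higher and 5 lower with DAC, where 1 was higher with a pseudocount of 1 and 1 to 2 with 1 library left out. With an equal sum the DAC dose trend had 5 members higher in THP1, and 2 higher and 3 lower in NOMO1; NOMO1 members lower on day 6 relative to day 1 numbered 0 with GSK032 and 1 with DAC. Over all genes, an equal sum gave 2257 higher and 257 lower with GSK032 in MV411, 1549 lower with DAC in THP1 and 48 lower with GSK032 in NOMO1. Median ratios gave 369 (GSK032) and 445 (DAC) lower in MV411 and 774 lower with DAC in NOMO1. In THP1 778 genes were higher with GSK032 at a pseudocount of 0.1, 286 at 1 and 273 with the 2 groups alone, and in NOMO1 884 were higher and 123 lower at 0.1 and 351 higher at 1. Values near 0 changed sign: VCAN with GSK032 in MV411 (0.064 equal sum, 0.019 median ratios, -0.18 to 0.14 with 1 library left out), S100A12 with DAC in MV411 (-0.25 to 0.078 with 1 left out), LYZ with GSK032 in THP1 (0.026 median ratios, -0.24 to 0.085 with 1 left out) and MNDA with DAC in THP1 (-0.23 equal sum, -0.052 to 0.29 with 1 left out). The cause was not tested.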
